A study of Mus musculus with 8 samples.

Results

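Transcription factors that mark regions of the early brain were followed in protrusions of the open neural plate and in normally shaped open neural tube of mouse embryos. The 9 genes were given as a list and matched by symbol, and all 9 stand among the 26608 gene symbols counted in every library. They are Otx2, Hesx1, Six3 and Lhx2 of the forebrain and midbrain, En1, En2 and Pax2 of the region around the midbrain-hindbrain boundary, Gbx2 of the anterior hindbrain, and Egr2 of the segmented hindbrain. The study set 4 protrusion libraries against 4 open neural tube libraries, all from FVB embryos at day 8.5 of gestation whose mothers were diabetic, so no embryo of a non-diabetic mother is among them. Of the protrusions, P1 is labelled as separated from the neural plate and P2, P3 and P4 as attached to it, and the open neural tubes, O9, O10, O13 and O14, were cut just in front of the first closure site, where the folds begin to meet. Tissue was taken by laser from cryosections, and 7 to 12 ng of total RNA entered each library. The sources used here do not give how diabetes was brought about, the axial level of the protrusions or which libraries come from separate embryos. P1 and P2 have titles with a common stem.

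The brain is laid out along its length before the neural tube closes. Otx2 is needed for the forebrain and midbrain, Gbx2 for the anterior hindbrain, and each represses the other, so that their border becomes the midbrain-hindbrain organiser, where En1, En2 and Pax2 are expressed together with Wnt1 and Fgf8. Hesx1, Six3 and Lhx2 act in the forebrain and eye field, and Egr2 gives identity to alternate segments, the rhombomeres, of the hindbrain. Several of these genes also have sites outside the brain. Gbx2 is expressed in the gastrulating embryo around the primitive streak, Pax2 in intermediate mesoderm and the ear placode, and Egr2 in a part of the neural crest.

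The libraries were made by SAGE, which reads a short tag at the last site of a restriction enzyme before the poly(A) tail, so that 1 transcript gives 1 tag whatever its length. The kit uses NlaIII, which cuts at CATG. The tags that the members should give were read from the GENCODE M21 transcripts of GRCm38 as the 25 bases that start at the last CATG of each transcript with a complete end in the basic set. They are shown because a gene's count can only be read against the tag that stands for it, with the enzyme site in capitals:
Gbx2: CATGtcggaagcacgtctccgttgt
Otx2: CATGaccaacaggtagttggcactg
Hesx1: CATGttggcttctcttccagttgta
Lhx2: CATGcgcacctccttcaagcaccac
En2: CATGccttttagcaggaagcaaatc
Pax2: CATGtctcctcaaccgtggatcgtg
Egr2: CATGtgtacaggatgccttactatg
Six3-201: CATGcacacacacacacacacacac
Six3-202: CATGacgatttatttgtatctggga
Six3-203: CATGgtaaaggaaaaccagtaacaa

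The tags of 7 of the 9 members were found at CATG sites of no other GENCODE gene. That of the transcript Six3-201 is a CA repeat that 44 other genes also hold, while the tags of Six3-202 and Six3-203 were found in 0 other genes. For En1 no full tag could be read: its last CATG starts 7 bases before the annotated end of En1-201, and the next site upstream starts 867 bases before it. The tag of Lhx2 lies in the coding sequence, and those of the other members with a full tag lie in the 3′ UTR. The submitters' processing notes name mm9, and the sources used here do not state how tags were assigned to genes, so the deposited counts may rest on other sites than these.

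**Figure D1:**
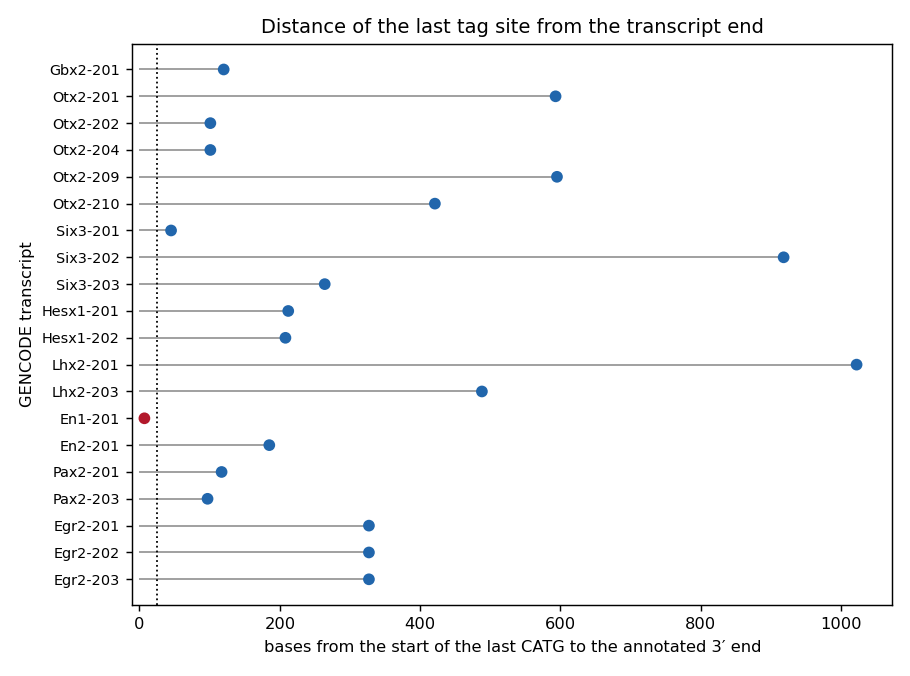
Distance in bases from the start of the last CATG to the annotated 3′ end, for each GENCODE M21 transcript of the members with a complete end. The dotted line stands at the 25 bases of a full tag, and the single transcript short of it is En1-201, at 7 bases.

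Total counts ran from 6112477 to 11430602 reads in protrusions and from 5668054 to 16655583 reads in open neural tube. A gene with 3 reads, taken as the floor, stood at 0.262 to 0.491 CPM (the count scaled to 1000000 reads per library) in protrusions and at 0.180 to 0.529 CPM in open neural tube. Such floors cover counting error only. The open neural tube libraries held fewer different transcripts: after thinning to the smallest total, 14404 to 15551 genes had reads in protrusions, against 9920 to 11254 in open neural tube. Zeros made up 0.0915% to 0.549% of a protrusion's values and 4.85% to 18.8% of an open neural tube's values for 3280 genes that averaged 5 to 20 CPM over all 8 libraries. A 0 in open neural tube may thus say less than the read total would allow. Genes expressed in protrusions alone also add to these zeros, and their part was not tested. Genes that mark the neural tube, the labelled tissue, were read in both groups, 10 of 10 in each, with summed levels of 471 to 1168 CPM in protrusions and 239 to 1210 CPM in open neural tube. The most abundant of them, Sox2, stood at 158 to 583 CPM in protrusions and at 30.9 to 550 CPM in open neural tube.

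Gbx2 was the abundant member and was higher in every protrusion. It stood at 252 CPM in P1, 276 in P2, 971 in P3 and 390 in P4, against 35.5 CPM in O9, 46.4 in O10, 36.9 in O13 and 54.6 in O14. The groups did not overlap, and the lowest protrusion lay 4.62-fold above the highest open neural tube. Among the protrusions P3 was the highest, and the open neural tubes lay close together. Protrusions averaged 472 ± 338 CPM and open neural tubes 43.3 ± 8.90 CPM (SD, n = 4 each), a ratio of 10.9.

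In edgeR's quasi-likelihood test across 11036 genes, Gbx2 rose by 3.31 ± 0.40 on the log2 scale (± SE), with a Benjamini-Hochberg adjusted p of 0.0111, and ranked 7 by p. Of all genes tested, 0.281% rose, 0.326% fell and 0.607% passed a threshold of 0.05 in either direction, and in 8.84% every protrusion lay above every open neural tube. Gbx2 was the single member that passed the low-count filter, so no count over the other members can be read from this fit. With the separated protrusion left out, its log2 fold change was 3.51 ± 0.38 (edgeR adjusted p = 0.00976), in a comparison in which 0.759% of 11466 genes rose and 0.741% fell. Leaving out O9, O10 or O14 ended the call, with log2 fold changes of 3.30, 3.38 and 3.49 and edgeR adjusted p-values of 0.0572, 0.0596 and 0.0768. Since separate embryos are not stated, the p-values measure only library-to-library spread, some of which may be technical. In tissue pieces, fewer cells that express a gene and less RNA per cell cannot be told apart.

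Of 13 markers of gastrulating and posterior tissue, 13 had reads in protrusions and 7 in open neural tube. Their summed level reached 317 CPM in P1 and 1156 to 1456 CPM in P2, P3 and P4, against 6.62 to 48.2 CPM in open neural tube. Of the 7 that could be tested, 4 rose (Tbx6, Cdx1, Cdx2 and Nodal) and 0 fell, where 0.281% of all genes tested rose. Their median log2 fold change was 6.56, against 0.08 over all genes tested. These genes passed the low-count filter mainly through their reads in protrusions. The count of 4 and this median are thus partly set by the filter and give no support to the list. T, the Brachyury gene of the streak, stood at 36.8 CPM in P1, 737 in P2, 498 in P3 and 379 in P4, against 0.30 CPM in O9, 16.9 in O10, 0.30 in O13 and 6.33 in O14, and did not pass (edgeR adjusted p = 0.0698, and 0.0396 with the separated protrusion left out). In the separated protrusion T was thus far below the attached ones, while Gbx2 was at 252 CPM there and at 276 CPM in the lowest attached protrusion. The part of gastrulating tissue in the level of Gbx2 was not tested.

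The neural marker Sox1, a transcription factor of the early neural plate chosen after its values were seen, had another order. It stood at 108 CPM in P1, 4.01 in P2, 6.12 in P3 and 6.85 in P4, against 99.3 CPM in O9, 78.0 in O10, 15.3 in O13 and 99.6 in O14. For Sox1 the separated protrusion thus stood beside 3 of the open neural tubes, and O13 was low in Sox1 and not in Gbx2. Not all genes of the neural tube list had this order. Of its 10 genes, all tested, 4 had a fitted log2 fold change above 0 and 6 below, and 0 passed in edgeR. With the separated protrusion left out, 3 lay above 0 and 7 below. Of these 10 genes 1 then fell, Sox1 (log2 fold change −3.78 ± 0.65, edgeR adjusted p = 0.0350), beside 0.741% of 11466 genes. Sox3, also chosen after its values were seen, was at 0 in P1 and at 23.9, 50.7 and 35.5 CPM in P2 to P4. In O9, O10, O13 and O14 Sox3 stood at 0, 3.18, 1.26 and 2.03 CPM. Ncam1, a neural adhesion molecule, stood at 134, 134, 49.3 and 193 CPM in P1 to P4, against 55.5, 61.2, 53.0 and 70.6 CPM in O9, O10, O13 and O14. Cdh2, the N-cadherin gene, stood at 103, 144, 91.9 and 123 CPM in P1 to P4, against 88.3, 77.8, 74.4 and 31.4 CPM in O9, O10, O13 and O14. For Ncam1 and Cdh2, also chosen after their values were seen, the separated protrusion lay above every open neural tube, as it did for Gbx2.

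**Figure D2:**
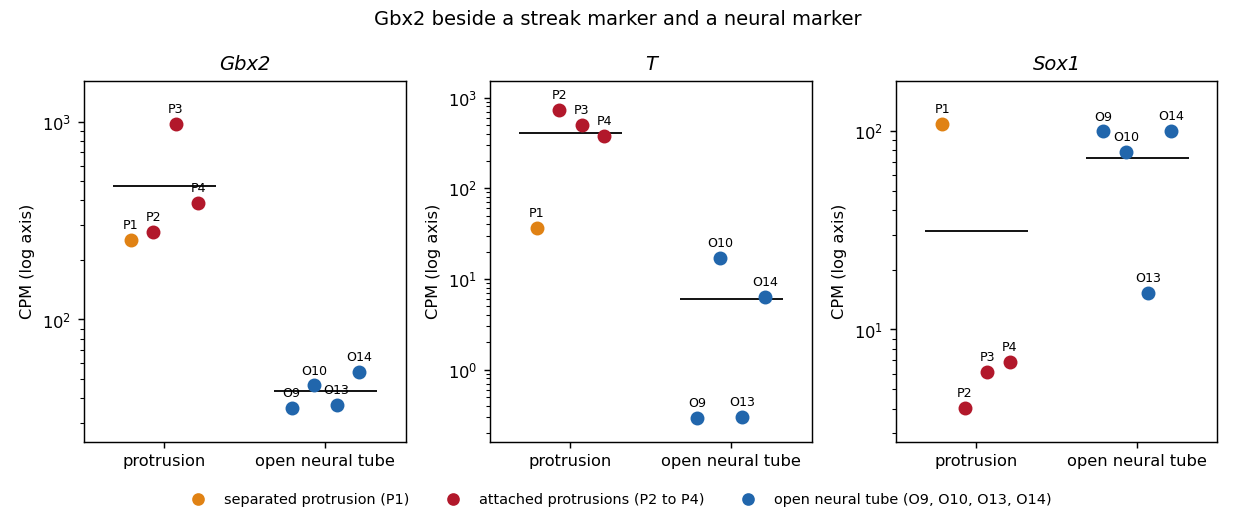
CPM (log axis) of Gbx2, the streak marker T and the neural marker Sox1 in each library, with protrusions left of open neural tube and a horizontal bar at the mean of each group. Gbx2 lies at 252 to 971 CPM in protrusions and 35.5 to 54.6 CPM in open neural tube, whereas Sox1 in the separated protrusion lies at 108 CPM, beside the open neural tubes.

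The genes whose profile over the 8 libraries was most like that of Gbx2 were looked for among 5583 tested genes with a mean of at least 20 CPM. Likeness was the root mean square difference of log2 CPM, each gene centred on its own mean, whose median over all these genes was 1.74. The nearest gene was Sema6a, a transmembrane semaphorin, at 0.58, followed by Grsf1, an RNA-binding protein, at 0.61, the transcription factor Arid3b at 0.76, the focal adhesion protein Zyx at 0.76 and Spred1, an inhibitor of ERK signalling, at 0.76. Sema6a stood at 96.0, 141, 373 and 207 CPM in P1 to P4, against 12.3, 24.7, 51.2 and 28.3 CPM in O9, O10, O13 and O14. Like Gbx2 it was highest in P3, and so were Grsf1, Zyx and Spred1. Arid3b was highest in P2, at 206 CPM. Of these 5 genes, 4 rose between the groups, as genes picked for this profile would, and Spred1 did not pass (log2 fold change 1.94 ± 0.54, edgeR adjusted p = 0.104).

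**Figure D3:**
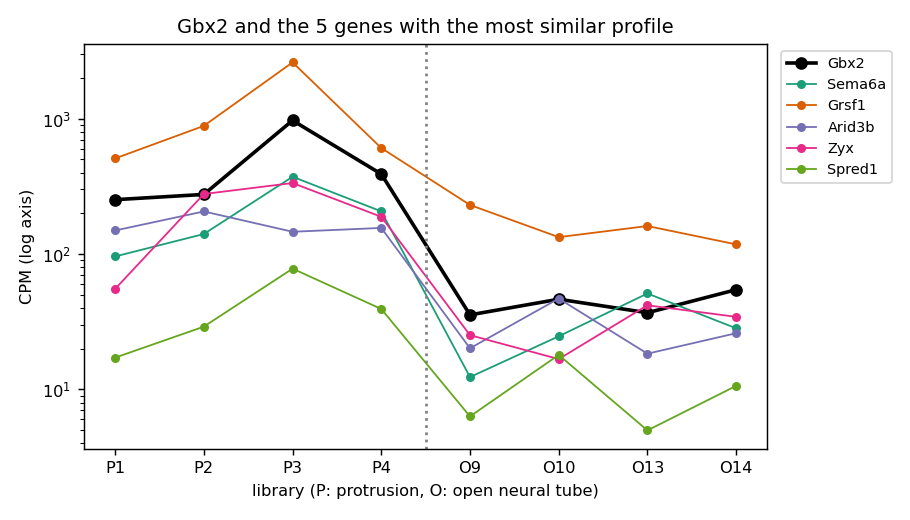
CPM (log axis) of Gbx2 and of the 5 tested genes with the smallest difference from its centred log2 profile, by library. Lines join the points of a gene and carry no order of time, and 4 of the 5 genes share with Gbx2 their highest value in P3.

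Otx2, the forebrain and midbrain partner of Gbx2, was nearly unread. It had 1 read in P1, 0 in P2, 10 in P3 and 0 in P4, against 0 reads in each of the 4 open neural tubes. The value in P3, 0.87 CPM, was the only one above the floor of its library. Of 2329 genes whose mean in protrusions lay within a factor of 2 of that of Otx2, 66.7% were likewise unread in all 4 open neural tubes. Within each library Gbx2 exceeded Otx2 by 10.01, 11.91, 10.05 and 12.66 on the log2 scale in P1 to P4 (0.5 added to each count), against 9.49, 9.04, 10.3 and 9.84 in O9, O10, O13 and O14. The groups overlapped in this ratio. Where Otx2 has 0 reads, its size depends on the value added and on the depth of the library.

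The forebrain factors Hesx1, Six3 and Lhx2 were read in protrusions only as single or few tags. Hesx1, a homeobox repressor of the anterior neural plate, had 5 reads in P3 (0.44 CPM), 3 in P4 (0.36 CPM) and 0 in P1 and P2, against 0 reads in the 4 open neural tubes. Six3, which represses Wnt signalling in the forebrain, had 1 read in each of P1 and P2, and Lhx2, a LIM homeobox gene of the eye field and cortex, had 1 read in P2, while both were at 0 in the other libraries. Neither exceeded the floor of 3 reads in any library. Of the genes with a mean in protrusions within a factor of 2 of that of Hesx1, 72.2% were unread in every open neural tube, and of those near Six3 83.2%, so such zeros were common at these levels.

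Antisense transcripts overlap some of these genes, and the sources used here do not say whether counting used strand. Otx2os1, which overlaps Otx2, stood at 0.29 CPM in P2 and at 0 elsewhere, and Six3os1, which overlaps Six3, at 0.78 CPM in O13 and at 0 elsewhere. A transcript opposite to Gbx2 is annotated as well, D130058E05Rik, and was not analysed here under that name.

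Around the midbrain-hindbrain boundary, Pax2 was read in each attached protrusion and in no other library. This paired-box gene had 15 reads in P2 (2.15 CPM), 8 in P3 (0.70 CPM) and 17 in P4 (2.04 CPM), against 0 reads in the separated protrusion and in the 4 open neural tubes. All 3 values exceeded the floor. Without a low-count filter, Pax2 did not pass the threshold over 18121 genes, of which 0.453% did (edgeR adjusted p = 0.130, and 0.122 with attached protrusions alone). Of 2330 genes with a like mean in protrusions, 29.4% had 0 reads in all 4 open neural tubes. Genes of intermediate mesoderm and the ear placode, where Pax2 is also expressed, summed to 12.9 to 34.1 CPM in protrusions and 2.57 to 90.4 CPM in open neural tube. Pax8 of that list was at 0 in all 8 libraries. Their part in the reads of Pax2 was not tested.

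The engrailed genes were close to or at 0. En2, which patterns the midbrain and cerebellum, had 5 reads in P2 (0.72 CPM) and 1 in P3 (0.09 CPM), against 0 reads in the other protrusions and in the 4 open neural tubes. En1, its paralog, had 0 reads in all 8 libraries, as had 31.9% of all genes. Its last CATG lies too near the annotated transcript end for a full tag, as given above, and the part of this in its 0 was not tested. Without a low-count filter the adjusted p-values in edgeR were 0.199 for Otx2, 0.202 for Hesx1, 0.218 for En2, 0.319 for Six3 and 0.440 for Lhx2.

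**Figure D4:**
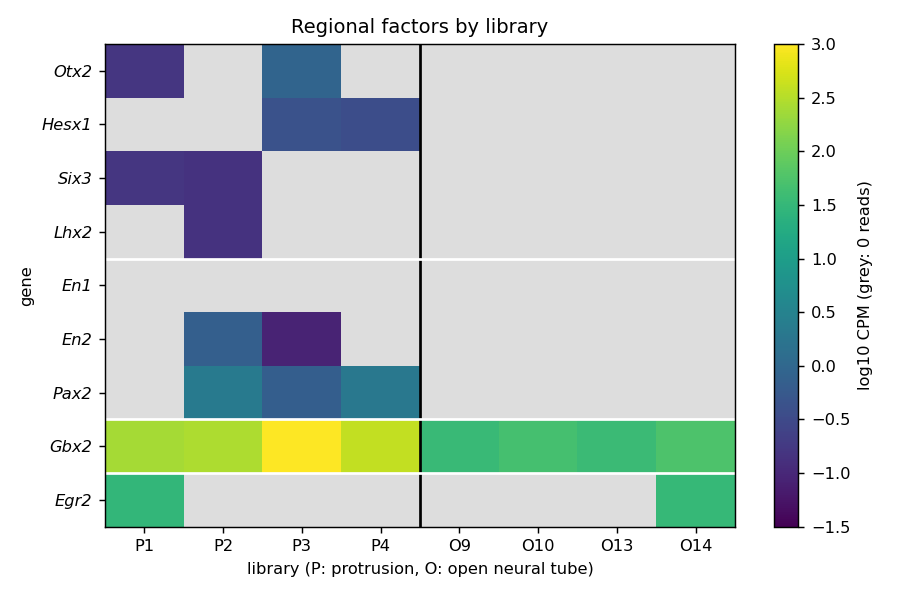
Level of each member in each library on a log10 CPM colour scale, with grey for 0 reads, protrusions left of the black line and open neural tube right of it. Gbx2 is read in all 8 libraries, Egr2 in 1 library of each group, and the other members with any reads in protrusions alone, at 2.15 CPM or less.

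Egr2 was read in 1 library of each group. It had 185 reads in the separated protrusion (30.3 CPM) and 0 in the attached P2, P3 and P4, against 277 reads in O14 (33.1 CPM) and 0 in O9, O10 and O13. The groups overlapped fully. P3 and O13, which had no read of Egr2, were the deepest libraries. In the fit without a low-count filter its edgeR adjusted p was 0.982. Egr2 was the 1 gene of the 26608 with at least 20 CPM in 2 libraries and 0 reads in the other 6, out of 1389 genes with reads in exactly 2 libraries (a count made after its values were seen). In all, 11 genes were read in just this pair of libraries.

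Hoxb1, from a list of hindbrain genes, and Irx2, from a list of midbrain-hindbrain boundary genes, were set beside it. Both were chosen after their values were seen. Hoxb1, which marks a rhombomere between those of Egr2 and is also expressed in posterior tissue, stood at 20.8, 122, 188 and 100.2 CPM in P1 to P4, against 1.18, 0.35, 30.1 and 1.07 CPM in O9, O10, O13 and O14, so that P1 was the lowest of the protrusions and O14 one of 3 low open neural tubes. Irx2, an Iroquois gene of the neural plate, reached 120 CPM in P1 and 2.44 to 4.64 CPM in the attached protrusions, against 8.71 to 65.8 CPM in open neural tube. Markers of the neural crest, where Egr2 is also expressed, summed to 35.7 CPM in the separated protrusion and 36.6 to 69.5 CPM in the attached ones, against 42.6 to 78.5 CPM in open neural tube. Of the 5 listed, 4 were matched by symbol, and Tfap2a was not. Sox9, the most abundant of them, stood at 21.9 to 32.6 CPM in protrusions and 18.0 to 67.2 CPM in open neural tube. Snai1 stood at 6.54 to 36.9 CPM in protrusions and 5.73 to 35.6 CPM in open neural tube. Sox10, a defining crest gene chosen after its values were seen, had 3.44, 0.14, 0.35 and 0 CPM in P1 to P4, against 9.78, 0, 0 and 0 CPM in O9, O10, O13 and O14. It was thus highest in O9, which had 0 reads of Egr2. Foxd3, also of this list, had 2 reads in P1, below the floor of 3 reads, and 0 in the other libraries. The part of crest cells in the reads of Egr2 was not tested.

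**Figure D5:**
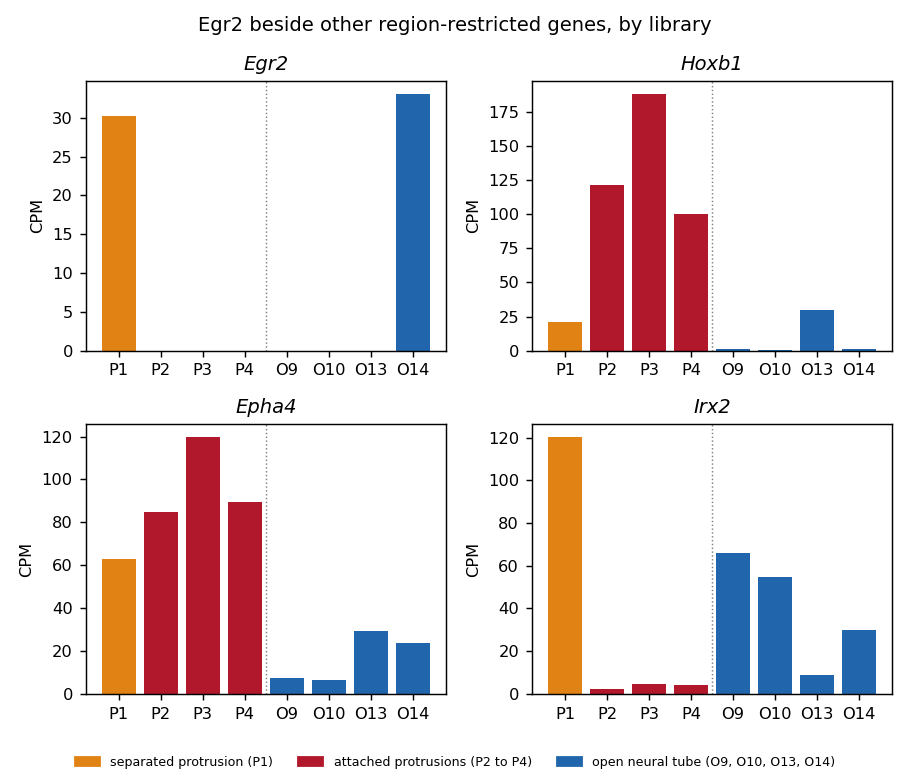
CPM of Egr2, Hoxb1, Epha4 and Irx2 in each library, with protrusions left of the dotted line and each panel on its own axis from 0. Egr2 is read in the separated protrusion and in O14, at 30.3 and 33.1 CPM, and in no other library.

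Further genes of the same regions were described from lists, of which only those with enough reads could be tested. Of 16 forebrain genes, 2 were tested and 0 passed in edgeR, with 1 at an unadjusted p under 0.05, as had 15.3% of all genes tested. Sp8 passed in DESeq2 and limma-voom, in which 7.2% and 3.35% of all genes did, and 0 genes of the list passed with sample weights, against 1.71% of all genes. Sp8, a zinc finger factor of the forebrain and also of the tail bud, stood at 101, 163, 130 and 102 CPM in P1 to P4, against 38.9, 37.6, 10.1 and 57.4 CPM in O9, O10, O13 and O14. Every protrusion lay above every open neural tube, as in 8.84% of all genes tested. The log2 fold change of Sp8 was 1.70 ± 0.44 (edgeR adjusted p = 0.0849). Pax6, of the eye field, forebrain and spinal cord, stood at 31.6 CPM in the separated protrusion and 0.61 to 7.21 CPM in the attached ones, against 4.92 to 60.9 CPM in open neural tube (edgeR adjusted p = 0.461). Emx1, Nkx2-1, Barhl2, Vax1 and Dlx2 of this list had 0 reads in all 8 libraries.

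Of 16 genes of the midbrain-hindbrain boundary, 6 were tested and 0 passed in edgeR, with 1 at an unadjusted p under 0.05 and a median log2 fold change of −0.69, against 0.08 over all genes tested. The 1 gene of 6 at an unadjusted p under 0.05 is close to the 15.3% over all genes. Sp5 passed in DESeq2, where 7.2% of all genes did, and 0 genes of the list did in limma-voom, without or with sample weights. Sp5, a Wnt target of the boundary and the streak, stood at 7.85, 31.1, 81.3 and 24.4 CPM in P1 to P4, against 0, 0.35, 2.82 and 0 CPM in O9, O10, O13 and O14 (edgeR adjusted p = 0.0842). It passed the low-count filter mainly through its reads in protrusions, so its call in DESeq2 gives no support to the list. Spry1, a feedback inhibitor of FGF signalling, ranged from 16.5 to 40.9 CPM in protrusions and from 4.06 to 20.5 CPM in open neural tube (edgeR adjusted p = 0.343). Irx3, the most abundant of the list, ranged from 4.20 to 50.4 CPM in protrusions and from 14.6 to 86.1 CPM in open neural tube (edgeR adjusted p = 0.385). With the separated protrusion left out, 8 were tested, 1 rose and 0 fell, beside the 0.759% of all genes that rose. The one that rose was Fgf17, a ligand of the boundary that is also expressed near the streak, at 27.1, 5.07 and 21.8 CPM in P2, P3 and P4, against 0.20, 0.18, 0 and 0 CPM in O9, O10, O13 and O14 (edgeR adjusted p = 0.0489). With all 8 libraries Fgf17 was removed by the low-count filter, and without that filter it did not pass the threshold (edgeR adjusted p = 0.0648). It passed the filter here through the attached protrusions, where it is high, so its call gives no support to the list. In P1 Fgf17 was at 0.49 CPM, as was Fgf8, which was chosen after its values were seen and stood at 6.56 to 19.2 CPM in the attached protrusions and at 0.30 CPM or less in open neural tube. Pax5, Pax8 and Cnpy1 had 0 reads in all 8 libraries.

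Of 18 hindbrain genes, 16 were tested and 0 passed in edgeR, 9 with a fitted fold change above 0 and 7 below (median log2 fold change 1.20), and 8 had an unadjusted p under 0.05, beside 15.3% of all genes. Epha4 and Meis1 passed in DESeq2 and in both limma-voom fits, and Nab1, a corepressor of Egr factors, in limma-voom without weights. Nab1 stood at 3.87 to 13.3 CPM in protrusions and was read in 1 open neural tube, at 2.67 CPM (edgeR adjusted p = 0.425). It passed the low-count filter mainly through its reads in protrusions, so its call gives no support to the list. Over all genes tested, 7.2% passed in DESeq2, 3.35% in limma-voom and 1.71% in limma-voom with sample weights. Epha4, an ephrin receptor that keeps rhombomeres apart, stood at 63.0, 84.6, 120 and 89.5 CPM in P1 to P4, against 7.50, 6.35, 29.2 and 23.5 CPM in O9, O10, O13 and O14. Every protrusion lay above every open neural tube, as in 8.84% of all genes tested (log2 fold change 2.30 ± 0.51, edgeR adjusted p = 0.0723). Epha4 passed without a low-count filter (edgeR adjusted p = 0.0430), as did 0.453% of 18121 genes. Meis1, a Hox cofactor, stood at 51.0, 7.89, 13.3 and 29.4 CPM in P1 to P4, against 69.7, 131, 162 and 77.0 CPM in O9, O10, O13 and O14 (log2 fold change −2.19 ± 0.56, edgeR adjusted p = 0.0832). With the separated protrusion left out Meis1 fell by 2.79 ± 0.53 in log2 units (edgeR adjusted p = 0.0446). It was the 1 gene to pass of the 16 tested from this list, beside the 0.741% of 11466 genes that fell.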

How the data were processed

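The deposited files hold whole-number SAGE tag counts per gene symbol, per the file headers, with no normalization by the authors. The submitters' processing notes name mm9. The aligner and the rule for tags were not stated in the sources used here. Groups follow the source names, and protrusions are numbered in listed order. CPM values were computed here from library totals. The groups were compared in R 4.3.3 with edgeR 4.0.16 (filterByExpr with a minimum count of 10, TMM, robust quasi-likelihood F test, 2-sided, Benjamini-Hochberg over all genes tested, threshold 0.05), with limma 3.58.1 and DESeq2 1.42.0 as alternatives. SEs were derived from F. Profiles used log2 CPM with a prior count of 2. The scripts were tested on simulated data.

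All 9 members are named, and from each list of further brain genes those past the threshold, otherwise the 2 with the smallest p, and the most abundant. The 5 genes most like Gbx2 and, of each list of other tissues, the most abundant gene and those at 0 are named too. Some genes that this rule takes are not reported here. The members and lists were chosen with earlier results of these data known. Other lists cover gastrulating tissue, neural tube, intermediate mesoderm and ear placode, and neural crest, and those of anterior endoderm, epiblast, endothelium and blood are given in the closing section. Alternatives were other scaling, filters, tools, thinning, and each library left out.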

Additional observations from a re-analysis of the deposited data

Results flagged for a closer look

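In 5 of 26 sets of 4 libraries with any spread, for the 17 genes named by rule, the highest library stood apart from the other 3 by more of the range than Dixon's critical value allows. Chance flags about 1 in 20 sets of normally distributed values, but a set with reads in 1 library only is always flagged. Lhx2 in protrusions and Egr2 in both groups were such sets, so the 5 of 26 cannot be set against that rate. Egr2 stood apart in the separated protrusion P1 (30.3 CPM) and in open neural tube O14 (33.1 CPM), with 0 reads in the other libraries of each group. En2 stood apart at 0.717 CPM in P2, from 5 reads. Lhx2 stood apart at 0.143 CPM in P2, which is 1 read and below the floor. Sp5 stood apart at 2.82 CPM in O13, where the other open neural tubes lay at 0 to 0.35 CPM.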

How the results depend on the processing

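Gbx2 was higher in protrusions in all 18 alternatives, with log2 fold changes of 2.81 to 3.55, and stayed past the threshold in 15 of them (adjusted p up to 0.0768, in edgeR without O14). The number of members past the threshold was 0 to 1 with each library left out in turn. The number of genes past it, 67 in all, was 103 with upper-quartile factors, 157 with a filter of 20 CPM in 4 libraries, 795 with DESeq2, 370 with limma-voom, 189 with sample weights, 1 to 172 with each library left out, and 211 without P1 and O13 (chosen after seeing the data). The cause was not tested. The median log2 ratio of Gbx2 to Otx2 was 9.53 in protrusions with 3 added to each count, and 8.67 and 7.09 in open neural tube with 1 and 3 added, against 10.98 and 9.67 with 0.5. The fit of attached protrusions alone without a low-count filter was also chosen after seeing the data. No paired analysis was possible because the groups share no replicate numbers.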

Other observations

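Emx2, a homeobox gene of the forebrain and of the urogenital ridge, was read in all 4 protrusions, at 2.78, 2.44, 2.19 and 1.08 CPM in P1 to P4, and had 0 reads in the 4 open neural tubes (edgeR without a low-count filter, adjusted p = 0.119, chosen after its values were seen). The share of genes unread in open neural tube was not computed at its mean in protrusions, 2.12 CPM. Near the mean of Pax2, 1.22 CPM, 29.4% of genes had 0 reads in all 4 open neural tubes. Wnt1, a ligand of the midbrain-hindbrain boundary and of the dorsal neural tube, had 2.78 CPM in P1 and 0 in P2, P3 and P4, against 11.9, 7.06, 0 and 9.55 CPM in O9, O10, O13 and O14 (edgeR adjusted p = 0.499; chosen after its values were seen).

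The other marker lists gave summed levels as follows. Genes of anterior endoderm and prechordal tissue, where Hesx1 and Otx2 are also expressed, summed to 43.2 to 74.7 CPM in protrusions and 22.4 to 51.8 CPM in open neural tube, with Dkk1 the most abundant. Epiblast genes summed to 14.2 to 447 CPM in protrusions and 0 to 17.9 CPM in open neural tube. The highest was P3, in which Pou5f1 alone stood at 437 CPM, and Nanog was at 0 in all 8 libraries. P3, the deepest protrusion library, also held 10 of the 11 reads of Otx2. The part of epiblast cells in these reads was not tested. Endothelial genes summed to 34.0 CPM in P1 and 0.574 to 2.76 CPM in P2 to P4, against 6.42 to 163 CPM in open neural tube, with Tek the most abundant. Blood genes summed to 0.430 to 45.9 CPM in protrusions and 1.06 to 1009 CPM in open neural tube, with Hba-x the most abundant and Hbb-y at 0 in all 8 libraries.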
